A study of Mus musculus with 50 samples.

Results

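The nuclear factor I (NFI) family comprises 4 transcription factor genes in the mouse, Nfia, Nfib, Nfic and Nfix. Its members were taken by gene symbol, and all 4 were found among the 11708 genes of the RNA sequencing table. The family was selected on measured values, the differences between genotype groups in these same libraries, so the calls on its members below describe the data and are not independent evidence. Whole brains of FVB/ANTJ mouse embryos at stage E13.5 were measured in 18 libraries, 6 groups of 3. In the gtf2i cross the genotype labels were wt, gtf2i and gtf2i/gtf2i, and in the ird1 cross they were wt, ird1 and ird1/ird1, for mutations of Gtf2i and Gtf2ird1 respectively. Labels naming an allele a single time were read as heterozygous, and those naming it on both sides of the slash as homozygous. The mutations themselves, the sex of the embryos and any pooling are not given in the labels, and where nothing states that libraries came from separate embryos, the p-values measure the spread between these libraries only. The 32 chromatin samples of the series were not analysed here.

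NFI proteins bind DNA as dimers at a palindrome made of the motifs TTGGC and GCCAA, and they activate or repress genes depending on the site and the cell. In the developing brain they act in radial glia, the stem cells of the neural tube, where Nfia, Nfib and Nfix promote the switch from self-renewal towards neurons and glia. Nfic is known mainly for its role in tooth root formation. Gtf2i encodes TFII-I and Gtf2ird1 a related protein, both transcription factors of the region deleted in Williams syndrome.

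The libraries held 3239117 to 7371483 counts each. In every one of them the lowest gene stood at 2.9 to 3.09 CPM (the count scaled to a common library total), so the deposited table kept only genes above a minimum level in every library. Counts of the NFI members lay between 153 and 3346, which gives a counting error of 8.08% to 1.73%, for counting alone. Gtf2i, the targeted gene of the first cross, averaged 624 CPM among wt libraries, with gtf2i at 368 and gtf2i/gtf2i at 82.5 CPM. Gtf2ird1 averaged 98.2 CPM among the wt libraries of its cross, with ird1 at 149 and ird1/ird1 at 223 CPM. Its transcript was thus higher in the libraries labelled as mutant, and its level does not check the loss of its protein. In the gtf2i cross Gtf2ird1 was higher too, with averages of 92.4 CPM among wt, 136 CPM among gtf2i and 267 CPM among gtf2i/gtf2i libraries (log2 fold change of the homozygotes 1.52, adjusted p = 5.61e-07), the libraries in which 3 NFI members fell. Its part in the levels of the NFI members was not tested.

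Nfia (ENSMUSG00000028565) and Nfib (ENSMUSG00000008575) both lie on chromosome 4 of GRCm38.p6, at 97578066 to 98118876 and at 82290173 to 82506751. Nfic (ENSMUSG00000055053) lies on chromosome 10 at 81396191 to 81431919, and Nfix (ENSMUSG00000001911) on chromosome 8 at 84704712 to 84801238. The loci differ widely in span, from 35.7 kb for Nfic to 541 kb for Nfia. Other annotated genes overlap every member, and E130114P18Rik, which overlaps Nfia, and Lyl1, which overlaps Nfix, were themselves among the genes counted. Whether the counting used strand is not given in the sources used here, so reads from a member and an overlapping gene on the other strand may not be told apart.

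The 250 bases before an annotated transcript start are shown for Nfia, Nfix and Nfic, from RefSeq on GRCm38.p6, to set members that fell in gtf2i/gtf2i brains beside the one that did not. The table matched 3 of the 4 members, with 1 such window for Nfia, 1 for Nfic, 4 for Nfix and 0 for Nfib, which also fell. Of the Nfix windows, those 2 with the motif TTGGC or GCCAA, a single arm of the NFI site, are shown. Capitals mark that motif. For Nfix, the words first and other give the order of printing only. The windows lie at chr4:97581693-97581942 (plus strand, Nfia), chr8:84775829-84776078 and chr8:84772876-84773125 (minus strand, Nfix) and chr10:81427174-81427423 (minus strand, Nfic), each inside the annotated span of its gene.
Nfia: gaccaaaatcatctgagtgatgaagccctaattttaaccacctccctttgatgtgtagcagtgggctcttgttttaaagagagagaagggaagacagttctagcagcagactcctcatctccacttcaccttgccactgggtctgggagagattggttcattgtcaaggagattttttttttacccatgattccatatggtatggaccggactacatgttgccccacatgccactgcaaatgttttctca
Nfix, first window: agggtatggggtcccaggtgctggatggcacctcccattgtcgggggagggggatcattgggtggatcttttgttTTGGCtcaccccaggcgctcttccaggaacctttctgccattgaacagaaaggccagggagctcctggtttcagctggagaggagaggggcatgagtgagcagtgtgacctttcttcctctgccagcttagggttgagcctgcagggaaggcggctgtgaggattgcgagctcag
Nfix, other window: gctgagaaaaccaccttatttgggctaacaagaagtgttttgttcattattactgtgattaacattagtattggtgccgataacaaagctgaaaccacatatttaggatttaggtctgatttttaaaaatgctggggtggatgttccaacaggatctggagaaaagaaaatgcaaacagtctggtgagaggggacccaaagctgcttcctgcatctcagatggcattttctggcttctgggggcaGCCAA
Nfic: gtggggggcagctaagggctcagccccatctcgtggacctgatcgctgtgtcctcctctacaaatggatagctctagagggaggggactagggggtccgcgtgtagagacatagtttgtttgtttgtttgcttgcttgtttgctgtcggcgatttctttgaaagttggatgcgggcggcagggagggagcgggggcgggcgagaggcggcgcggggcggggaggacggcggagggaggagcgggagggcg
None of the 6 windows of the members held the full palindrome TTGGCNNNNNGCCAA, which was found in 0.0365% of the 32851 windows of the same length, on either strand. The single arm TTGGC was found in 41.5% of those windows, on either strand, and is thus a common match. GGATTA, a core motif bound by proteins of the TFII-I family, was found in 6.25% of all windows and in none of the 6. The windows differed in base composition, with a GC content of 63.2% for Nfic, 44.8% for Nfia and 58.4% and 42% for the Nfix windows shown. These matches describe the letters in the windows only.

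By their means over the 6 wt libraries of both crosses the members were ordered Nfix, Nfib, Nfia and Nfic. Scaled by the deposited transcript length, Nfix had 67.1 ± 11.1 CPM per kb (SD, n = 6) and lay above 92.9% of genes. Nfib followed with 37.2 ± 8.59 CPM per kb and Nfia with 18.2 ± 3.09 CPM per kb. Nfic, at 7.78 ± 0.649 CPM per kb, was the least abundant member and lay below the middle of all genes, above 37% of them. On this scale each step in the order was larger than the SD of the levels on either side of it. Without length, the step from Nfix to Nfib was smaller than either SD, at 368 ± 60.8 and 339 ± 78.3 CPM. Among the wt libraries of the gtf2i cross Nfib then averaged higher, at 376 CPM beside 330 CPM for Nfix. Levels below are CPM scaled by TMM factors, without length, except where given per kb.

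Nfix, a member that drives the maturation of radial glia and later of neural stem cells, fell in homozygous gtf2i/gtf2i brains to 50.9% of its wt mean. The 3 wt libraries had 332, 259 and 397 CPM. Those labelled gtf2i had 321, 381 and 401 CPM, and those labelled gtf2i/gtf2i had 152, 168 and 183 CPM. The 3 homozygous libraries lay below all 6 others of the cross, and the wt and gtf2i libraries overlapped. In whole brain, fewer cells of a type and less RNA per cell cannot be told apart, and markers of the telencephalon were also lower in these libraries, as given further on. Its log2 fold change against wt was -0.98 (SE 0.138, adjusted p = 0.00377). Across the 3 pairs of wt and gtf2i/gtf2i libraries that share the number at the start of their titles, the log2 ratio was -0.99, -0.77 and -1.11.

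Nfib, required for the glial population of the dorsal telencephalon and for the corpus callosum, showed the same order of groups. The wt libraries had 327, 347 and 454 CPM, the gtf2i libraries 427.5, 417 and 396 CPM, and the gtf2i/gtf2i libraries 189.9, 195 and 257 CPM. Again every homozygous library lay below every other library of the cross. The log2 fold change against wt was -0.82 (SE 0.134, adjusted p = 0.0104), or 56.9% of the wt mean, and the same-number log2 ratios were -0.75, -0.87 and -0.82.

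Nfia, which acts in the onset of gliogenesis and represses the Notch effector Hes1, had the smallest log2 fold change of the 3 members that fell. Its wt libraries stood at 169.6, 174 and 214 CPM, its gtf2i libraries at 207, 212 and 191 CPM, and its gtf2i/gtf2i libraries at 111, 132 and 147 CPM. The homozygous libraries did not overlap either other group. The log2 fold change against wt was -0.53 (SE 0.114), a level of 69.8% of wt, and its adjusted p of 0.0455 lay close to the threshold of 0.05. Nfia was not called with limma-voom (adjusted p = 0.0516) nor in 5 of the 6 fits that left out 1 library of the compared groups.

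Nfic did not fall. Its wt libraries stood at 51.4, 40.6 and 50.7 CPM, its gtf2i libraries at 42.3, 56.5 and 53.4 CPM, and its gtf2i/gtf2i libraries at 54.1, 64.4 and 61.2 CPM. The homozygous libraries lay above all 3 wt libraries and overlapped gtf2i. The log2 fold change of 0.32 (SE 0.131, adjusted p = 0.271) did not pass the test, although all 3 same-number pairs were positive, at 0.33, 0.41 and 0.27.

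**Figure D1:**
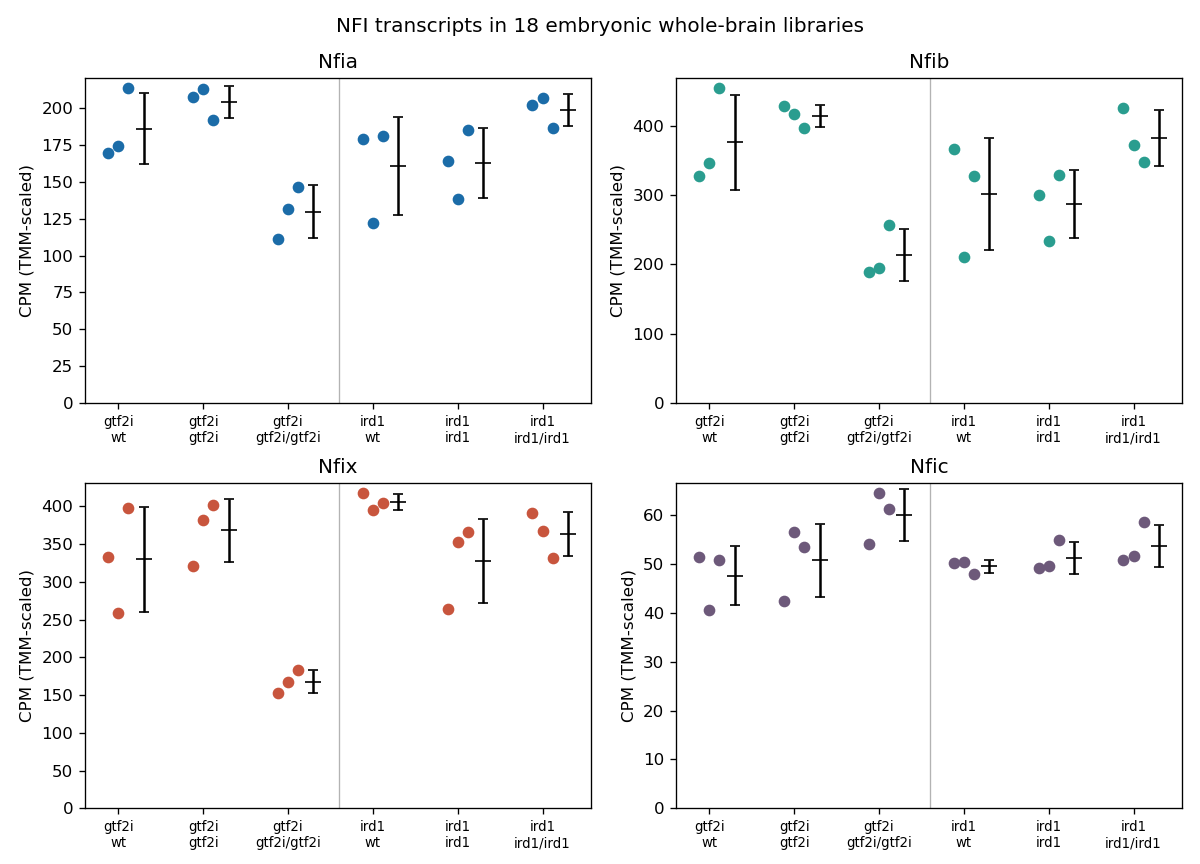
Level of each NFI member (CPM, TMM-scaled, linear axis from 0) in every library of the 6 genotype groups, with the group mean and SD in black (n = 3). The gtf2i/gtf2i libraries of Nfia, Nfib and Nfix sit below all other libraries of the gtf2i cross, and those of Nfic sit above wt.

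In gtf2i/gtf2i against wt, 3 of the 4 members were thus called lower by edgeR's quasi-likelihood test, where 110 of 11708 genes (0.94%) were called in either direction, 62 (0.53%) lower and 48 (0.41%) higher. At an unadjusted p under 0.05 the counts were 4 members and 14.4% of all genes. Libraries of the compared groups did not overlap for all 4 members, against 16.8% of all genes. With the title number as a block the same count of 3 members was called, among 624 genes. Fitted on the 6 compared libraries alone, or without gtf2i/gtf2i replicate 2, the test called only Nfix, with an adjusted p of 0.0201 and 0.0281. Against gtf2i in place of wt, the log2 fold changes of the members that fell were larger. Nfix had a log2 fold change of -1.14 (adjusted p = 0.000644), Nfib of -0.95 (adjusted p = 0.00249) and Nfia of -0.65 (adjusted p = 0.00953), and Nfic of 0.23 (adjusted p = 0.41). In this contrast Nfia was called in 5 of the 6 edgeR fits that left out a single library, with a highest adjusted p of 0.0628. There 3.12% of genes were called, 1.79% lower, and the groups did not overlap for 3 members and for 19.2% of genes. Both contrasts share the gtf2i/gtf2i libraries.

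In heterozygous gtf2i brains no member was called lower or higher than in wt. The log2 fold changes were 0.13 for Nfia, 0.13 for Nfib, 0.09 for Nfic and 0.16 for Nfix, each with an adjusted p of 1, and only 1 gene (0.00854%) was called in that contrast. At an unadjusted p under 0.05 the count was 0 of 4 members and 1.6% of all genes, and DESeq2 and limma-voom also called 0. The 95% interval for Nfix ran from -0.13 to 0.44 and that for Nfib from -0.15 to 0.42, so a fall of the size seen in homozygous brains lay outside both.

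The family differed in its make-up as well as in its sum. Summed per kb of transcript, the 4 members had 110 to 153 CPM per kb in wt, 134 to 147 in gtf2i and 69 to 86.9 in gtf2i/gtf2i. The share of Nfic in that sum was 5.32% to 6.72% in wt, 5.06% to 6.17% in gtf2i and 11.3% to 13.6% in gtf2i/gtf2i. Nfix gave 42.9% to 49.5% of the sum in wt and 38.5% to 40.3% in gtf2i/gtf2i. Nfia gave 14.5% to 16.6% in wt and 16.9% to 18.1% in the homozygotes, where its share was higher although its level was lower. Nfib kept overlapping shares, 29.3% to 34.5% in wt and 28% to 32.5% in gtf2i/gtf2i. Within a library, the ratio of Nfix to Nfic CPM, which no scaling between libraries can move, was 6.38 to 7.83 in wt and 2.61 to 3.0 in gtf2i/gtf2i.

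**Figure D2:**
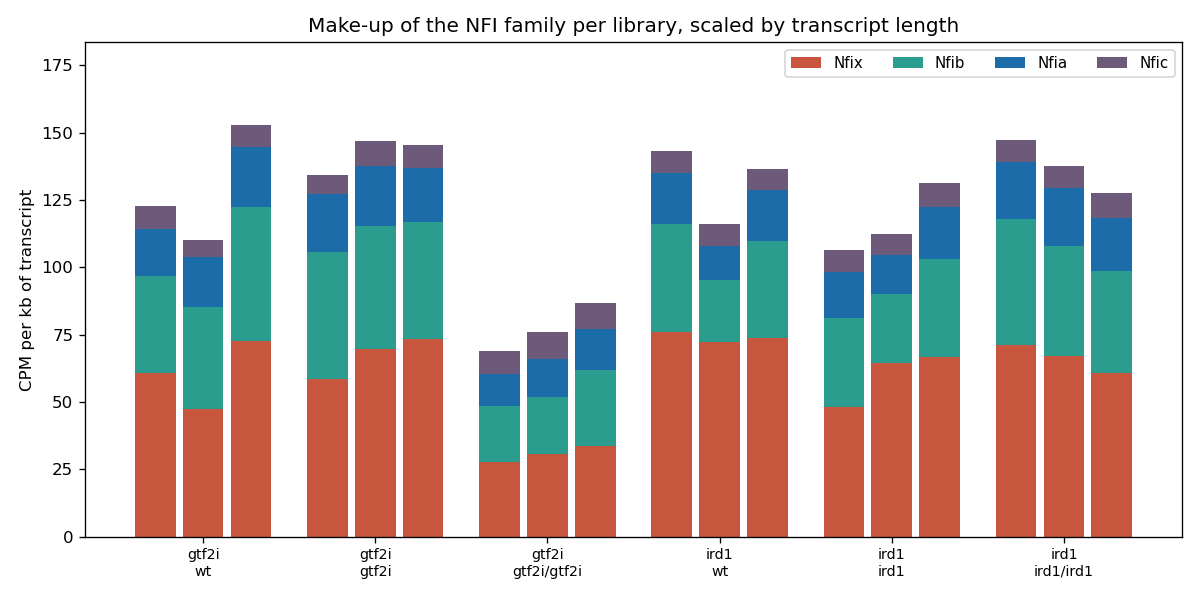
Stacked levels of Nfix, Nfib, Nfia and Nfic (CPM per kb of transcript) in each of the 18 libraries, ordered by cross and genotype with replicates 1 to 3 from left to right. The family sum is 69 to 86.9 in the 3 gtf2i/gtf2i bars and at least 106 in every other bar, while the Nfic segment is not smaller there.

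In the ird1 cross no member was called in any contrast. For Nfia the wt libraries had 179, 122 and 181 CPM, the ird1 libraries 164, 138 and 185 CPM, and the ird1/ird1 libraries 202, 207 and 186 CPM. The homozygous libraries lay above both other groups, yet the log2 fold change of 0.28 against wt had an adjusted p of 0.307. For Nfib the wt libraries had 366, 211 and 328 CPM, the ird1 libraries 299.9, 233 and 329 CPM, and the ird1/ird1 libraries 426, 372 and 347 CPM. Its wt and ird1/ird1 libraries overlapped, with a log2 fold change of 0.32 (adjusted p = 0.321).

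Nfix was high in all 3 wt libraries of the ird1 cross, at 417, 395 and 405 CPM. The ird1 libraries had 264, 353 and 366 CPM and the ird1/ird1 libraries 391, 367 and 332 CPM, so that both mutant groups lay below wt without overlap. The log2 fold change was -0.31 in ird1 (adjusted p = 0.997) and -0.17 in ird1/ird1 (adjusted p = 0.415), and neither passed the test. For Nfic the wt libraries had 50.1, 50.3 and 47.9 CPM, the ird1 libraries 49.1, 49.6 and 54.9 CPM, and the ird1/ird1 libraries 50.8, 51.6 and 58.6 CPM. Its log2 fold change in the homozygotes was 0.11 (adjusted p = 0.575).

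For ird1/ird1 against wt, 0 of the 4 members were called by edgeR, DESeq2 or limma-voom, 1 had an unadjusted p under 0.05 beside 16.1% of all genes, and 1 gene in all was called (0.00854%). Groups did not overlap for 3 members there, and for 26.9% of all genes. For ird1 against wt and for ird1/ird1 against ird1 the called share was 0% of all genes, and 1 and 2 members had an unadjusted p under 0.05, beside 3.02% and 4.66% of genes. Groups did not overlap for 1 and 2 members, beside 7.04% and 17% of genes. In both contrasts DESeq2 and limma-voom called 0. Between ird1/ird1 and ird1 the log2 fold change was 0.28 for Nfia, 0.40 for Nfib, 0.05 for Nfic and 0.13 for Nfix. The direction of Nfia and Nfib in ird1 against wt, 0.01 and -0.08, turned when single libraries were left out.

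The effects of the 2 homozygous genotypes were set against each other in a fit over all 18 libraries. The gtf2i/gtf2i effect minus the ird1/ird1 effect was -1.15 for Nfib (SE 0.238, adjusted p = 0.0502), -0.81 for Nfia (SE 0.191, adjusted p = 0.0847) and -0.81 for Nfix (SE 0.19, adjusted p = 0.0847). For Nfic it was 0.21 (adjusted p = 0.584). No member was called by edgeR, where 20 genes (0.171%) were, although 3 had an unadjusted p under 0.05, as did 13% of all genes. DESeq2 called 3 members, limma-voom 1 and the fit with the title number as a block 3, so the call depends on the test. The shares of all genes called by these alternatives are not given here, so their counts show nothing particular to the members. No member was called between the wt libraries of the crosses, where the log2 difference of gtf2i cross minus ird1 cross ran from -0.30 for Nfix to 0.31 for Nfib (adjusted p = 0.131 and 0.193), and 0% of genes were called. An unadjusted p under 0.05 was found there for 1 member and 32.7% of all genes, and DESeq2 and limma-voom called 0.

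**Figure D3:**
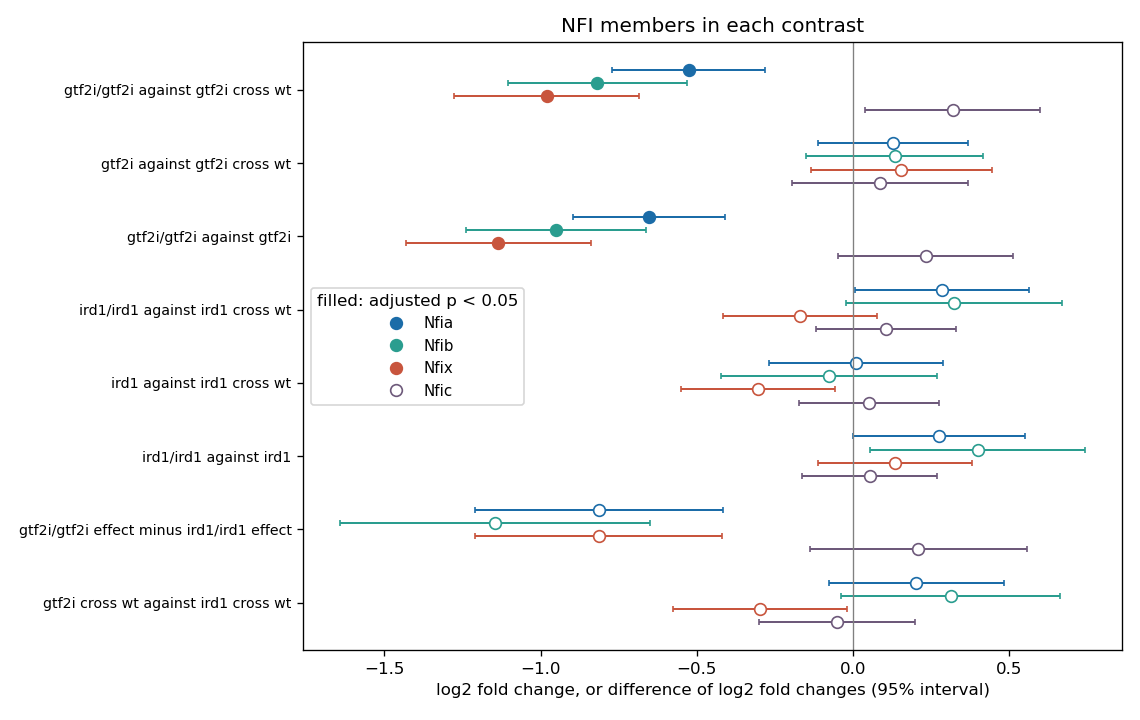
Log2 fold change of each NFI member with its 95% interval in 6 contrasts within a cross, in the difference of the homozygous effects and between the wt groups, with filled points for an adjusted p under 0.05. Filled points occur in the contrasts of gtf2i/gtf2i with wt and with gtf2i, for Nfia, Nfib and Nfix, where Nfix lies at -0.98 and -1.14.

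The gene lists from here on were chosen with earlier results of these data known. Their counts therefore describe the data and are not independent evidence. Of 16 factors that act upstream of the family or beside it in the cortex, 1 was called lower in gtf2i/gtf2i against wt, beside 0.53% of all genes, and 0 higher. At an unadjusted p under 0.05 the count was 5, beside 14.4% of all genes, and DESeq2 called 3 and limma-voom 1. Their median log2 fold change was -0.04, beside 0.00 for all genes. Sox9, known to induce Nfia at the onset of gliogenesis, had 0.21 (adjusted p = 0.312). Emx2 and Pax6, which pattern the cortical progenitors, had -0.06 and 0.06. For this list and those that follow, the DESeq2 and limma-voom counts stand without the share of all genes these tools called. They show only how calls vary between tests.

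Among 17 genes of radial glia and early glia linked to NFI factors, 14 were in the table, and Gfap, Aqp4 and S100b were not analysed here. Of these, 2 were called lower, beside 0.53% of all genes, and 0 higher, with a list median of -0.07. At an unadjusted p under 0.05 the count was 6, beside 14.4% of all genes, and DESeq2 and limma-voom called 2 each. Tnc, an extracellular matrix protein of radial glia, had a log2 fold change of -1.43 (adjusted p = 0.00639), with means of 43.2 CPM (wt) and 15.9 CPM (gtf2i/gtf2i). Aldoc, a glycolytic enzyme that marks astrocytes, had -1.27 (adjusted p = 0.00224), with means of 50.1 and 21.1 CPM. Fabp7, a fatty acid binding protein of radial glia, had -0.11, and Slc1a3, a glutamate transporter, had -0.34 (adjusted p = 0.176).

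The Notch pathway maintains radial glia, and 0 of its 13 listed genes in the table were called by edgeR, with a list median of 0.18. At an unadjusted p under 0.05 the count was 6, where 14.4% of all genes lay, and DESeq2 called 1 and limma-voom 0. Hes1 had a log2 fold change of -0.00. Hes5, the other main effector, had 0.41 against wt (adjusted p = 0.123) and 0.57 against gtf2i (adjusted p = 0.0267), the latter a call. Among 10 progenitor and chromatin genes linked to NFI factors, 2 were called lower, Eomes at -0.66 (adjusted p = 0.034) and Tbr1 at -0.65 (adjusted p = 0.00154), beside 0.53% of all genes called lower. Of the 10, 5 had an unadjusted p under 0.05, beside 14.4% of all genes, and DESeq2 called 3 and limma-voom 2. Eomes and Tbr1 are factors of newborn cortical neurons and their progenitors. Ezh2, a histone methyltransferase, had 0.08 and Bbx 0.07, and the list median was 0.07.

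Markers of the telencephalon, the forebrain region that forms the cortex, were lower beside the family. Of 21 telencephalon markers, 7 were called lower, beside 0.53% of all genes, and 20 lay below 0, beside 49.6% of all genes, with a median of -0.41. The called genes with the largest changes were Neurod6 at -1.30 and Neurod2 at -1.25. Their summed level was 2345 to 2617 CPM in wt and 1845 to 1970 CPM in gtf2i/gtf2i. Set against that sum, Nfix had 11.0 to 15.2 CPM per 100 CPM of telencephalon markers in wt and 7.73 to 9.94 in gtf2i/gtf2i. On that scale Nfib had 12.5 to 17.4 and 9.64 to 14, Nfia 6.49 to 8.16 and 5.63 to 7.94, and Nfic 1.73 to 1.97 and 2.75 to 3.4. The ranges overlapped for Nfib and Nfia and did not for Nfix and Nfic. This scale was chosen after the values were seen, is a description with no test, and does not show what part the telencephalon has in the levels of the members.

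Of the 14 radial glia markers, all present in the table, edgeR called 0, with 7 at an unadjusted p under 0.05 (14.4% of all genes here and for the lists that follow), and DESeq2 and limma-voom called 2 each. Their median was 0.23, and their summed level was 2931 to 3280 CPM in wt and 3550.2 to 3968 CPM in gtf2i/gtf2i. For 14 neuron markers the median was -0.19 and for 8 midbrain and hindbrain markers 0.18, with no call by edgeR in either. At an unadjusted p under 0.05 these counts were 4 and 3, and DESeq2 called 1 and 0, limma-voom 0 in both. The neuron markers were summed to 6511 to 7268 CPM in wt and 5405 to 7166 CPM in gtf2i/gtf2i. For the midbrain and hindbrain markers the sums were 428 to 472 and 389 to 613 CPM. Replicate 3 was the highest gtf2i/gtf2i library for both sums, as it was for Nfia, Nfib and Nfix. Red blood cell genes were summed to 4091 to 5314 CPM in wt and 5789.9 to 9184 CPM in gtf2i/gtf2i, and all 8 in the table lay above 0. Of these, 2 were called higher, beside 0.41% of all genes, the anion exchanger Slc4a1 at 0.83 and the embryonic globin Hbb-y at 0.76. DESeq2 called 3 and limma-voom 2, and 5 had an unadjusted p under 0.05. Choroid plexus markers were summed to 259 to 346 CPM and 175 to 208 CPM, and Ttr, a thyroid hormone carrier made there, was called lower at -1.63. Of the 4 choroid plexus markers measured, 2 lay above 0, Folr1 at 0.78 (adjusted p = 0.138) and Otx2 at 0.22 (adjusted p = 0.406), and the list median was 0.06. Medians of endothelium, mesenchyme and microglia were -0.01, 0.27 and 0.51, with no call by edgeR, DESeq2 or limma-voom and 0, 5 and 1 genes at an unadjusted p under 0.05. The part of these cell types in the levels of the NFI members was not tested.

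**Figure D4:**
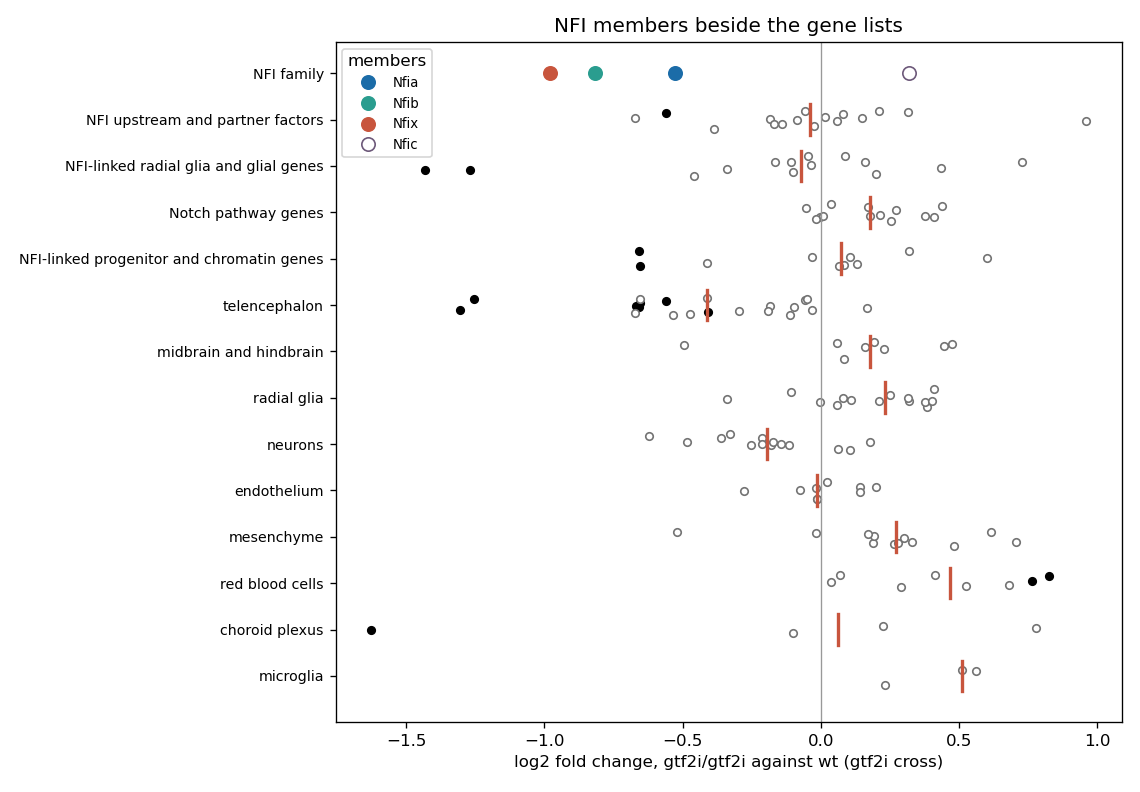
Log2 fold change in gtf2i/gtf2i against wt of the NFI members (top row) and of the genes of each list, with filled points for an adjusted p under 0.05 and a red bar at each list's median; points are spread vertically for legibility only. Nfix, Nfib and Nfia lie left of most listed genes, among the telencephalon markers with a median of -0.41, and Nfic lies at 0.32.

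Across all 18 libraries Nfia and Nfib had the most similar profiles of any member pair, with a Pearson correlation of log2 CPM of 0.973. By this measure each was also the gene of the whole table most like the other. Sox5, a factor of deep-layer cortical neurons, came next for both, at 0.926 with Nfia and 0.956 with Nfib. By Spearman correlation Nfib was closer to Sox5, at 0.973, than to Nfia, at 0.961. After Sox5, again by Pearson correlation, came Plcxd2 for Nfia, at 0.914, and E330009J07Rik for Nfib, at 0.942. Nfix was most like Ndrg2, at 0.963, Aldoc, at 0.946, and Galnt17, at 0.945. Ndrg2, a gene of astrocytes, and Galnt17, a glycosyltransferase, were called lower in gtf2i/gtf2i, at -0.79 (adjusted p = 0.0104) and -0.83 (adjusted p = 0.0287). Nfic had no partner as close, with Chst15 at 0.797, Cthrc1 at 0.79 and Egflam at 0.765. These correlations share the differences between groups and the depth and length trend of each library, and are a description only.

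With the group means removed, the correlation of Nfia and Nfib stayed at 0.937 over the 18 libraries, while Nfib and Nfix had 0.331 and Nfia and Nfix 0.354. Nfic and Nfix had 0.607, and Nfic had 0.17 with Nfia and 0.05 with Nfib. Replicate 2 of the ird1 cross wt, the library with the lowest total count, was the lowest of its group for both Nfia and Nfib. Without it the correlation of Nfia and Nfib was 0.909. Nfia and Nfib have the longest transcripts of the family, 9526 and 9116 bases, and the trend of counts with transcript length at that length differed between libraries, from -0.29 in ird1 cross wt replicate 2 to 0.21 in gtf2i/gtf2i replicate 3 at the length of Nfib (log2). With that trend removed, the correlation was 0.783. Both of these settings were added after the data were seen. Under deviations from group means, none of the 3 genes most like each member remained among its first 3.

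**Figure D5:**
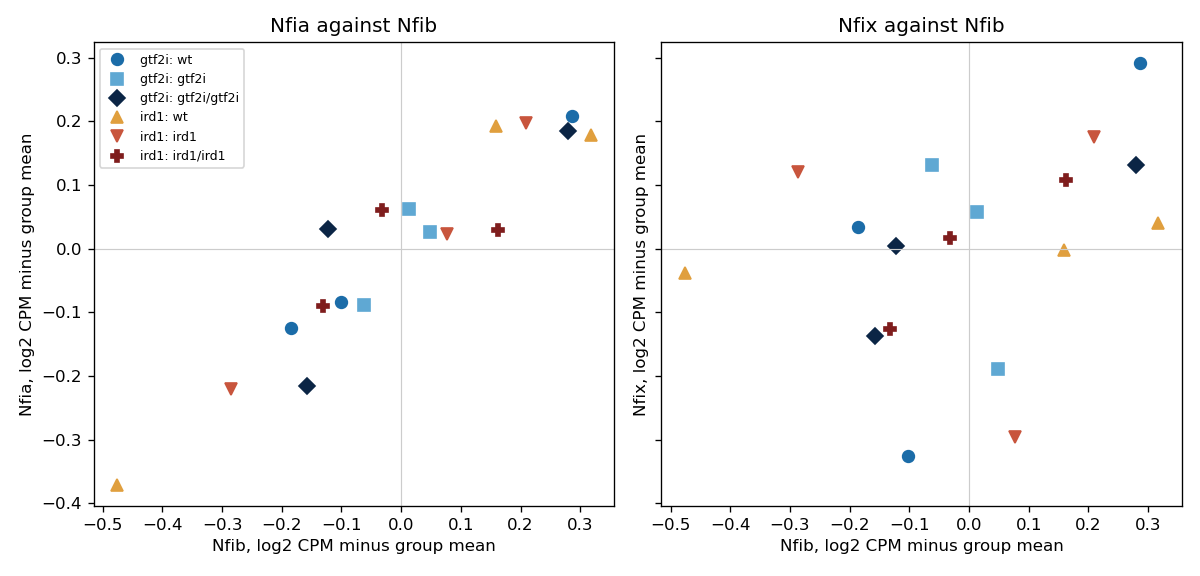
Deviation of each library from its group mean (log2 CPM) for Nfib on the horizontal axis and for Nfia (left) or Nfix (right) on the vertical axis; symbols mark the 6 groups of 3 libraries. Points for Nfia follow those for Nfib, with a correlation of 0.937, and points for Nfix scatter, with 0.331.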

How the data were processed

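The authors deposited whole-number read counts per gene, without normalization, for 18 libraries, with 1 transcript length per gene. RNA was depleted of ribosomal RNA before library preparation, per the labels' protocols. The submitters' processing notes name Trimmomatic, STAR, HTSeq and the mm10 build; versions and the strand setting are not given in the sources used here. The NFI members and all gene lists were chosen with earlier results of these data known. Samples were grouped by their genotype labels. Counts were tested with edgeR 4.0.16 in R 4.3.3 (TMM scaling, filterByExpr, quasi-likelihood F test, Benjamini-Hochberg adjustment over all 11708 genes), on the 9 libraries of a cross, or on all 18 across crosses, after checks on simulated data. A gene was called at an adjusted p under 0.05. Levels are CPM with TMM factors; correlations used log2 CPM with a prior count of 2. DESeq2 1.42.0, limma-voom 3.58.1, other scalings, filters, blocks and left-out libraries were alternatives.

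Named genes were the 4 members, the 3 genes most correlated with each, Gtf2i and Gtf2ird1, up to 5 called genes of each list with the largest change, and Sox9, Emx2, Pax6, Fabp7, Slc1a3, Hes1, Hes5, Ezh2 and Bbx. Title numbers were taken as pairing the gtf2i/gtf2i and wt libraries. The ground was that the deviations of all 3 pairs from their group means correlated above 0.1, at 0.377, 0.103 and 0.52. A pair with different numbers, wt replicate 1 and gtf2i/gtf2i replicate 1, had 0.203, so this criterion does not separate pairs from other libraries. The labels do not say what the numbers mean. In the other contrasts the numbers did not meet the criterion of 0.1. The main fits used the group alone, and the block was an alternative, also run in contrasts where the criterion was not met. All 18 within-group pairs of libraries differed by more than sampling noise. Promoter windows came from RefSeq on GRCm38.p6 and matched 3 of 4 members. One gene that this rule names is not reported here.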

Additional observations from a re-analysis of the deposited data

How the results depend on the processing

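Nfix was called in gtf2i/gtf2i against wt under every alternative run. The count of members called there, 3, became 1 when only the compared groups were fitted and was 1 to 3 with single libraries left out, the lowest without gtf2i/gtf2i replicate 2, where Nfia and Nfib had adjusted p = 0.173 and 0.0748. With the replicate block it was 3, and 4 when the length trend was removed as well, Nfic then being called at 0.34. Genes called in all rose from 110 to 624 with the block, and in gtf2i/gtf2i against gtf2i from 365 to 892; the block changed no member's call in contrasts within a cross. For the difference between the homozygous effects, 0 members called became 1 with upper-quartile scaling and with limma-voom, 2 with the length trend removed, 3 with DESeq2, 3 with the replicate block and 3 with block and length trend together. It was 0 to 3 with single libraries left out, 3 without gtf2i/gtf2i replicate 3 and 1 without ird1 cross wt replicate 1, gtf2i cross wt replicate 1 or gtf2i cross wt replicate 2. The cause was not tested. The block was not run between the wt groups, which share no title number. Apart from the block in gtf2i/gtf2i against wt and against gtf2i, the number of all genes called under each alternative is not given here. The counts of members under those alternatives thus show nothing particular to the members.

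Each direction that turned was that of a member not called in the contrast concerned. With the length trend removed, Nfia became -0.0445 in ird1 against wt and -0.0436 between the wt groups, and Nfic became -0.0174 in ird1/ird1 against ird1. With the replicate block added to that correction, Nfia became -0.0352 in ird1 against wt, and Nfic became -0.0031 in ird1/ird1 against wt and -0.0194 in ird1/ird1 against ird1. With single libraries left out, Nfic ran from -0.012 to 0.203 in gtf2i against wt (lowest without wt replicate 2), from -0.0119 to 0.114 in ird1/ird1 against ird1 (lowest without ird1/ird1 replicate 3) and from -0.107 to 0.0466 between the wt groups (highest without gtf2i cross wt replicate 2). In ird1 against wt, Nfia ran from -0.144 to 0.102, below 0 without wt replicate 2 or ird1 replicate 3, and Nfib from -0.271 to 0.0952, above 0 without wt replicate 1 or ird1 replicate 2. The cause was not tested. With 3 libraries a group, small differences such as those of the heterozygotes are not resolved.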
